A study of Homo sapiens with 8 samples.

Results

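The NF-κB system was described here through 10 genes: the 5 that encode the Rel proteins (NFKB1, NFKB2, REL, RELA and RELB), the inhibitors NFKBIA and NFKBIE, the nuclear IκB protein gene BCL3, the ubiquitin editor TNFAIP3 and the cytokine TNF. For each of them, all peaks were taken whose summit lay in the gene body or within 20 kb of it on hg19. A peak is a stretch of DNA where precipitated fragments pile up over the input, and its summit is the base where the pile is highest. It gives a position of the protein and says nothing of the expression of the gene, which was not analysed here. The 10 genes were drawn from 20136 protein-coding genes, and their windows held 324 of the 235023 peaks in 4 lists. The windows held 99 peaks in AML1-ETO 12 h, 128 in AML1-ETO 48 h, 49 in ETO2-GLIS2 12 h and 48 in ETO2-GLIS2 48 h.

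The study mapped the fusion proteins AML1-ETO and ETO2-GLIS2 by chromatin immunoprecipitation and sequencing (ChIP-seq) in U937, an established human line of monocytic type. AML1-ETO carries the Runt DNA-binding domain of AML1, and ETO2-GLIS2 carries the zinc fingers of GLIS2. Each was expressed with an HA tag at its N terminus from a doxycycline-inducible retroviral construct, in a line grown from a single clone, and was precipitated with anti-HA beads. The 8 libraries were 4 ChIP libraries and 4 inputs, all from cells given doxycycline at 5 µg/ml, with 1 ChIP library and 1 input for each fusion protein at 12 h and at 48 h. A clone was therefore tied to its fusion protein, and differences between proteins cannot be told apart from differences between clones. Each condition had 1 ChIP library, so the conditions are set side by side without a test and nothing is known of the spread between repeats.

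NF-κB proteins are dimers of Rel family members that wait in the cytoplasm bound to IκB inhibitors and enter the nucleus once a receptor signal has the inhibitor degraded. They bind short κB elements in DNA and switch on inflammatory and survival genes. Among their targets are the genes of their own inhibitors and of TNFAIP3 (A20), which end the signal, and monocytic cells such as U937 use the pathway to produce TNF and other cytokines.

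The lists held 70833 peaks for AML1-ETO 12 h, 105769 for AML1-ETO 48 h, 28325 for ETO2-GLIS2 12 h and 30096 for ETO2-GLIS2 48 h. Peaks were ranked within their own list by −log10 q, so that rank 1 is the strongest, and "place" below is the rank as a percent of the list length. The lists hold no read numbers, and the read totals that the study gives for its libraries were not used here, so neither the list lengths nor the places were scaled for depth. A longer list also gives a smaller percent at the same rank. Both the rank and the place are therefore given. Positions are counted in bp from the start of the canonical transcript in the direction of transcription, with negative values upstream.

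Every member had at least 1 peak in each list, beside 77.7%, 80.4%, 66.4% and 66.1% of all protein-coding genes in AML1-ETO 12 h, AML1-ETO 48 h, ETO2-GLIS2 12 h and ETO2-GLIS2 48 h. A summit within 1 kb of an annotated start was found for 10, 10, 9 and 9 members in that order, against 54.1%, 59.8%, 42.8% and 45.8% of all genes. The missing member was RELB, in both ETO2-GLIS2 lists. In all 4 lists together 9 of the 10 had such a summit, against 35.9% of all genes. For BCL3 in AML1-ETO 48 h the count rests on a weak peak at an internal start, at a place of 79.1%, because its strong peak covers the canonical start but has its summit far inside the gene. A gene with more annotated starts has more chances of a start summit and of a high place. The members had from 2 (TNF) to 24 (NFKB1) distinct starts, and all genes were not matched for this. With the canonical start only, 9, 8, 8 and 8 members had a summit within 1 kb. The share of all genes under that rule was not computed.

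The starts also stood high in the lists. A start summit in the strongest 10% of the list was present at 6, 7, 5 and 5 members, where the shares of all genes were 17.8%, 29.6%, 6.96% and 8.72%. In the strongest 1% there were 1, 2, 0 and 0 (NFKBIA, and NFKBIE at 48 h), against 1.71%, 3.74%, 0.586% and 0.8%. The median place of the members' best start summit was 6.70%, 2.62%, 7.93% and 6.44%, against 16.9%, 10.1%, 32.1% and 27.6% over all genes that had one. In the whole window, 9, 10, 7 and 7 members had a peak of the strongest 10%, beside 36.1%, 50.7%, 17.5% and 19.7% of genes. Peaks of the strongest 1% lay in the windows of 4, 5, 3 and 3 members, beside 4.6%, 7.85%, 2.18% and 2.65%. RELA, BCL3 and TNF were the members with such a peak in all 4 lists, and outside BCL3 these peaks lay away from the member gene: at the start of SIPA1 in the RELA window, and at the start of LST1 and in an upstream region of the TNF window.

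**Figure D1:**
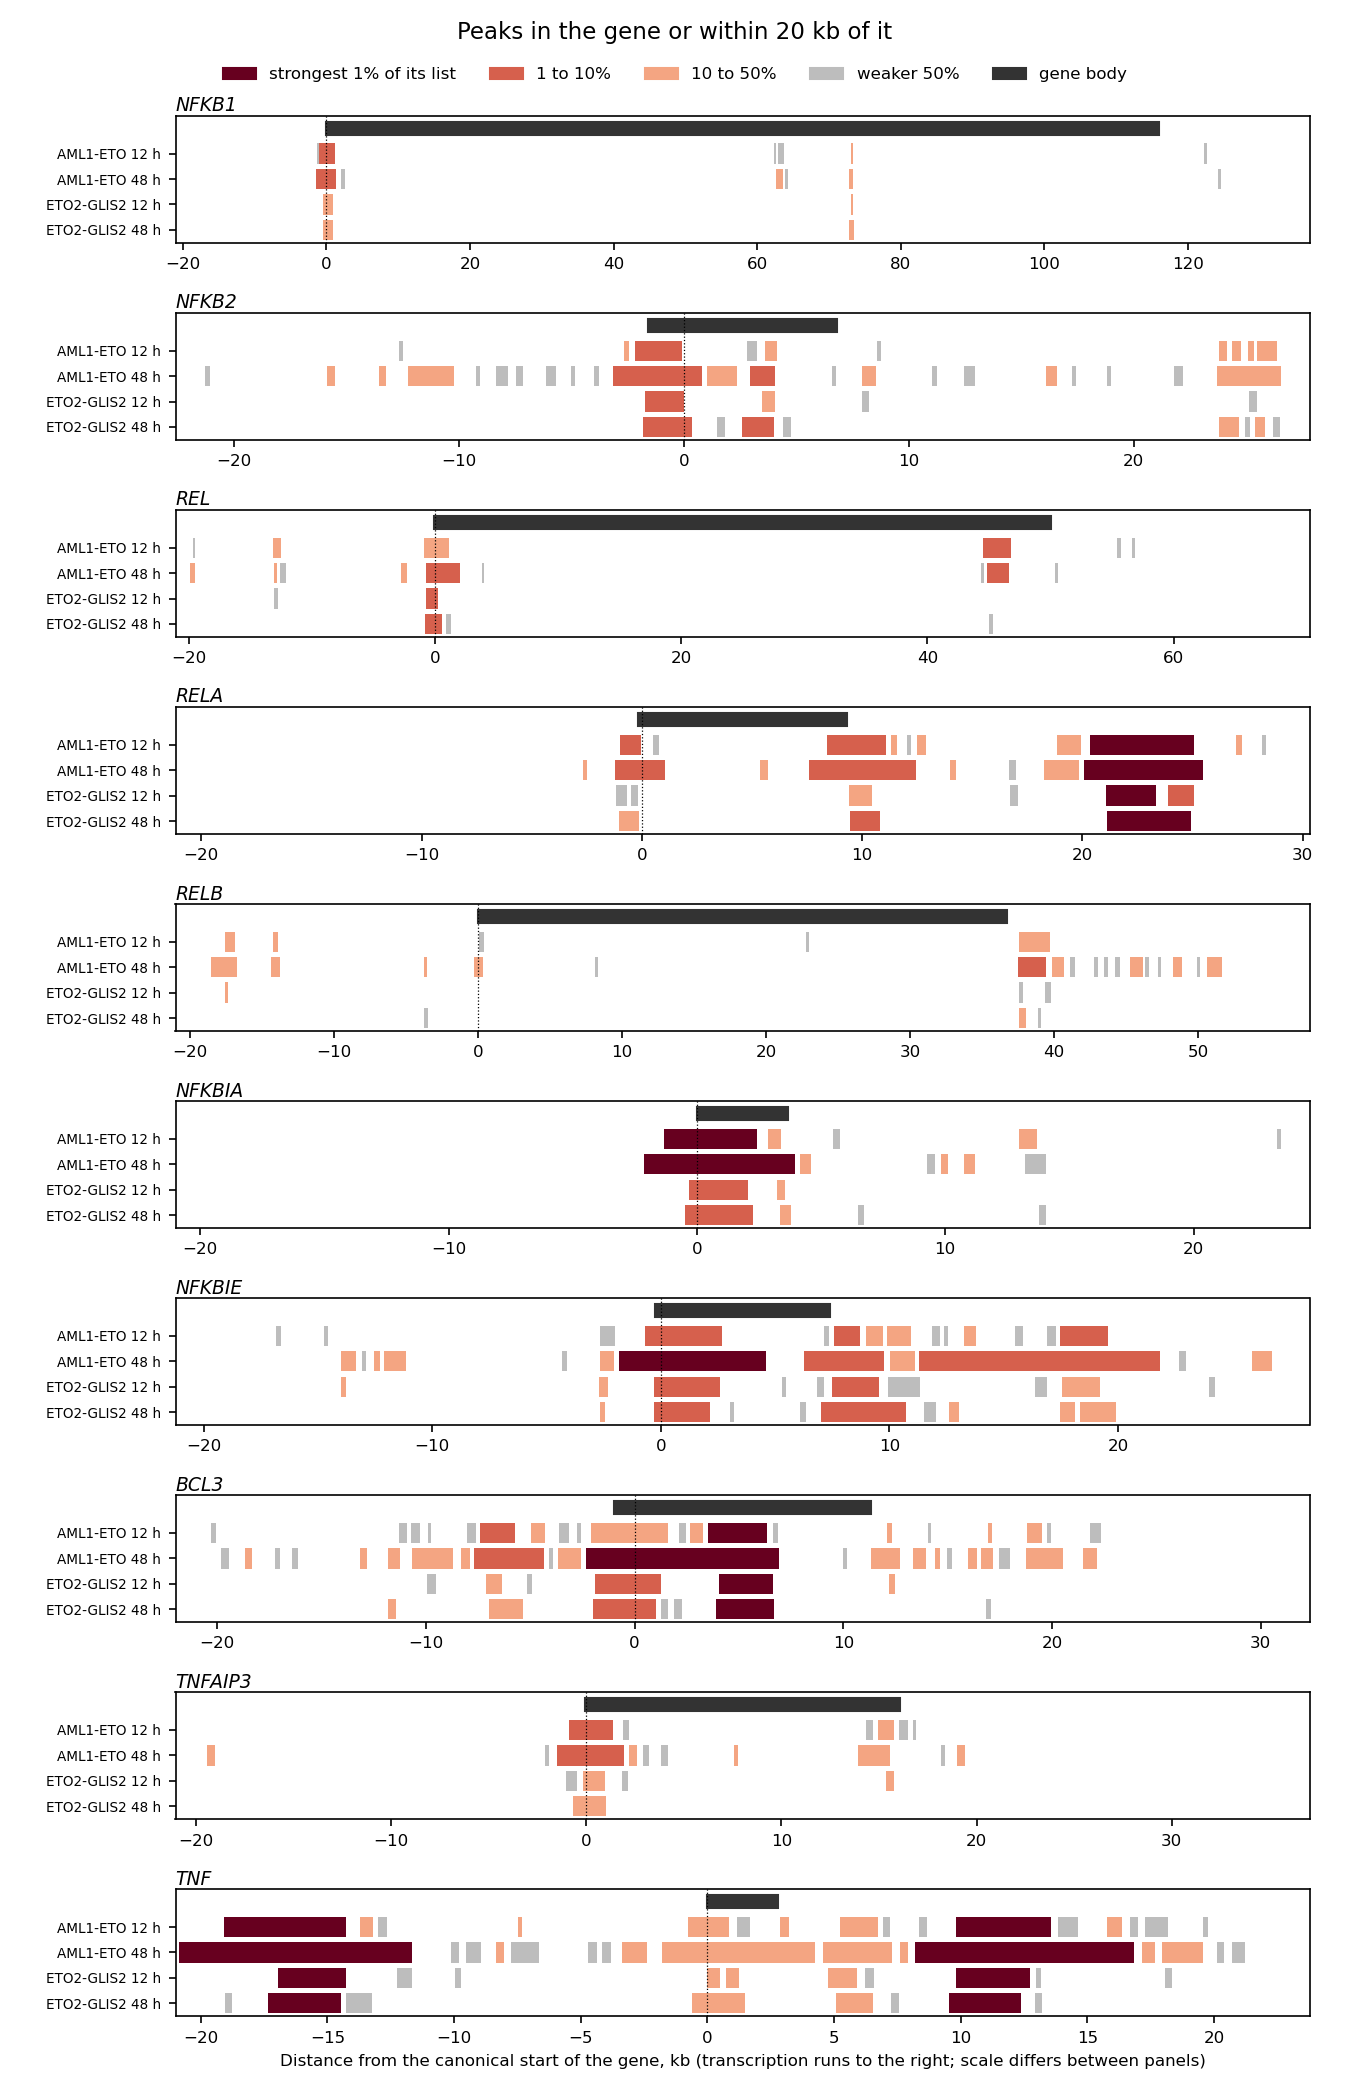
Peaks in the window of each member, drawn as bars against the distance from the canonical start in kb, with the 4 lists as rows and the gene body in black above them. The color gives the place in the list: the darkest bars are the strongest 1%, and they lie over the NFKBIA start (AML1-ETO lists), over the NFKBIE start (AML1-ETO 48 h), in BCL3 (all lists), and away from the RELA and TNF genes (all lists).

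The sequences of several of these regions are shown because they hold consensus elements for the DNA-binding domain of AML1 (Runt) or for NF-κB itself (κB). Each is 160 bases of GRCh37 (hg19), printed on the strand of the gene. Capitals mark matches to the κB consensus, to the Runt element (TGTGGT or TGCGGT) or to the E-box CAGCTG, on either strand. They were picked after the matches were known. The first lies in intron 2 of BCL3 and was the strongest element within any member gene for ETO2-GLIS2. It is followed by the bases just upstream of the annotated 5′ ends of NFKBIA, TNFAIP3 and NFKB1, and of NFKB2, which has a Runt match in place of a κB match. The last 3 are distal regions of TNF, NFKB1 and RELA.
BCL3 intron 2 (chr19:45256664-45256823, plus strand): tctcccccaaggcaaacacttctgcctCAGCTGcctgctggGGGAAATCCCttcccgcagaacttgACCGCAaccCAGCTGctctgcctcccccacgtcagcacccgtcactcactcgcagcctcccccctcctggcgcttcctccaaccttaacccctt
NFKBIA upstream (chr14:35873956-35874115, minus strand): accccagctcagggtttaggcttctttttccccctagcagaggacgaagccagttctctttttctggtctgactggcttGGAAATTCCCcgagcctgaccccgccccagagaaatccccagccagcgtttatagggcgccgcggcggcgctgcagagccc
TNFAIP3 upstream (chr6:138188191-138188350, plus strand): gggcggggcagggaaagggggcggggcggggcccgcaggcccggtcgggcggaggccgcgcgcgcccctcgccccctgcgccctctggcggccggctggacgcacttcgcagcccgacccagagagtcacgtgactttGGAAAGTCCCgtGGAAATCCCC
NFKB1 upstream (chr4:103422327-103422486, plus strand): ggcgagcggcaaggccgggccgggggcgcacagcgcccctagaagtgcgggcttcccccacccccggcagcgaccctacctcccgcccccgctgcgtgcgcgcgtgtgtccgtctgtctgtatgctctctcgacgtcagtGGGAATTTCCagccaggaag
NFKB2 upstream (chr10:104153707-104153866, plus strand): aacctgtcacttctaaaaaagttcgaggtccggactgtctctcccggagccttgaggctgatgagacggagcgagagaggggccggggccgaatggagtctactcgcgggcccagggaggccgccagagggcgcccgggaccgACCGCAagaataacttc
TNF distal (chr6:31526826-31526985, plus strand): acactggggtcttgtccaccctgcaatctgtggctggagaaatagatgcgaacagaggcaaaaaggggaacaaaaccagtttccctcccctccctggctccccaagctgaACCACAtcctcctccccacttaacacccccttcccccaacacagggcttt
NFKB1 intron 6 (chr4:103495615-103495774, plus strand): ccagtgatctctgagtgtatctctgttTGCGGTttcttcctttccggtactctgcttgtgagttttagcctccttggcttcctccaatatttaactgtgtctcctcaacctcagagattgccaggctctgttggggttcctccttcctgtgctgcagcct
RELA downstream (chr11:65420275-65420434, minus strand): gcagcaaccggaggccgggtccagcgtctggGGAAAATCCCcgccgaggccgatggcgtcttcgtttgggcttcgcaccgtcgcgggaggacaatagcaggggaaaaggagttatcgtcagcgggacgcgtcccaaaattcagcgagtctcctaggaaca

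The κB matches in the upstream sequences lay close to the starts. In NFKBIA the match was centred at -76 bp, in NFKB1 at -45 bp and in TNFAIP3 at -63 and -51 bp from the canonical start. All of them lay under a peak of each of the 4 lists. Upstream sequences of 3 of the 9 members examined for this held a κB match, beside 6.93% of the 160 bp upstream windows of 20136 protein-coding genes. These windows end at the annotated 5′ end of the gene. REL had κB matches at -43 and -42 bp from its canonical start, also under a peak of each list. They lay inside the annotated gene and are not in this count. The other motifs were present upstream of 1 member for Runt (10.7% of all genes), 1 for AP-1 (TGACTCA or TGAGTCA, 2.33%), and 0 for the ETS core CGGAAG (14.1%), CAGCTG (9.08%) and the GLIS core TGGGGGG (5.13%). A run of G bases can serve both the κB and the GLIS pattern, so their matches can overlap.

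At the summits the κB consensus was counted in windows of 200 bp. It was present at 13 of 99 member peaks in AML1-ETO 12 h (13.1%, against 6.53% of the list), at 15 of 128 in AML1-ETO 48 h (11.7%, against 6.10%), at 8 of 49 in ETO2-GLIS2 12 h (16.3%, against 10.6%) and at 6 of 48 in ETO2-GLIS2 48 h (12.5%, against 11.1%). Runt matches were at 28.3% and 28.1% of member peaks in the AML1-ETO lists, near the 26.7% and 24.9% of the whole lists, and at 20.4% and 18.8% in the ETO2-GLIS2 lists, near 23.2% and 21.9%. The CGGAAG core was at 10.1%, 11.7%, 16.3% and 10.4% of member peaks in the order of the lists above, against 6.02%, 5.22%, 10.3% and 10.1%. GLIS matches were at 7.07%, 4.69%, 12.2% and 14.6% of member peaks in the same order, against 4.23%, 3.83%, 7.72% and 7.89%. These were 7 of 99, 6 of 128, 6 of 49 and 7 of 48 peaks. The counts are small, and in AML1-ETO 48 h the member share was near that of the list. AP-1 matches were at 7.07%, 4.69%, 10.2% and 4.17% of member peaks in the same order, against 4.54%, 4.74%, 5.80% and 4.84%. CAGCTG was below the list share at 48 h, at 10.2% for AML1-ETO and 10.4% for ETO2-GLIS2, against 13.7% and 16.8%. At 12 h its share was near that of the list for both proteins. Member peaks lie in neighbouring clusters and are not independent, and these shares are a description.

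The Rel protein genes differed in what lay over their starts. NFKB1 (chr4:103422487-103538459, plus strand) encodes p105, the precursor of p50. Its start was covered by a peak of 2179 bp at rank 1711 in AML1-ETO 12 h and of 2828 bp at rank 1072 in AML1-ETO 48 h, places 2.42% and 1.01%. The ETO2-GLIS2 peaks over it were 1473 bp at rank 10455 and 1312 bp at rank 5250, places 36.9% and 17.4%. AML1-ETO thus stood higher at this start at both times, by rank and by place. The AML1-ETO summits were in exon 1 at 126 and 261 bp, and those of ETO2-GLIS2 were in intron 1 at 508 and 478 bp. A further element in intron 6 was present in all lists at 73232, 73115, 73127 and 73239 bp, with places of 27.4%, 12.9%, 12.9% and 24.9%. The intron 6 sequence shown above is this element. Its Runt match was 13 bp downstream of the AML1-ETO 48 h summit and 1 bp from that of ETO2-GLIS2 12 h, and 104 and 111 bp from both other summits.

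NFKB2 (chr10:104153867-104162281, plus strand) encodes p100, the precursor of p52 and an inhibitor of RELB dimers. Its peak sat at the annotated 5′ end rather than at the canonical start, with summits at -1642, -1618, -1558 and -1538 bp. The ranks were 4543, 3126, 892 and 996, which are places of 6.41%, 2.96%, 3.15% and 3.31%. By rank ETO2-GLIS2 stood higher at both times, and by place the 3 lists other than AML1-ETO 12 h lay close together. The upstream Runt match at -1610 bp was 32 bp downstream of the AML1-ETO 12 h summit and 8 bp from that of AML1-ETO 48 h, and 52 and 72 bp upstream of the ETO2-GLIS2 summits. A region over exons 13 and 14 was also in all 4 lists, with summits at 3958, 3682, 3711 and 3716 bp and places of 29.4%, 9.24%, 22.2% and 9.31%. NFKB2 had the most joined regions of the members, 25, of which 17 were in AML1-ETO 48 h alone. A joined region is the union of the peaks of all lists that overlap by at least 1 bp, and it was counted for a list by the peaks whose summits lie in the window.

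REL (chr2:61108626-61158747, plus strand) encodes c-Rel, the Rel protein known best from lymphocytes. The peak over its start had ranks 10230, 5735, 2247 and 1939, places 14.4%, 5.42%, 7.93% and 6.44%. By rank it was higher for ETO2-GLIS2 at both times, whereas by place AML1-ETO was slightly higher at 48 h. The summits fell on opposite sides of the start, at 268 and 170 bp in exon 1 for AML1-ETO and at -187 and -461 bp for ETO2-GLIS2. A second AML1-ETO peak lay in exon 10, at 45803 bp in both lists and at places of 7.56% and 6.56%. There the ETO2-GLIS2 12 h list had no peak, and the 48 h list had a weak peak at 60.6%.

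RELA (chr11:65421070-65430561, minus strand) encodes p65, the Rel protein with the main activation domain. Over its start the AML1-ETO peaks had ranks 4947 and 2416, places 6.98% and 2.28%, with summits at -382 and -347 bp. The ETO2-GLIS2 peaks were weak, with ranks 21992 and 9594 and places of 77.6% and 31.9%. At 12 h a neighbouring ETO2-GLIS2 peak at -977 bp stood somewhat higher, at 64.2%. The strong peaks of the RELA window lay elsewhere. A region downstream of the gene, at 9842, 9726, 10274 and 10221 bp, was in all lists at 4.22%, 4.78%, 17.0% and 8.87%. Its sequence is shown above, and its κB match lay at 9989 bp, under the peaks of all 4 lists but 147 to 285 bp from their summits. The strongest peaks were at the start of the neighbouring gene SIPA1, at 22149, 22145, 22160 and 22152 bp. They had ranks 272, 961, 144 and 101, and the 4 summits fell within 15 bp. Peaks of the RELA window in the strongest 1% were therefore peaks of SIPA1 by position.

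RELB (chr19:45504719-45541450, plus strand) encodes the partner of p52 in the alternative pathway. It was the member with the least over its start. AML1-ETO 12 h had a peak of 350 bp with its summit at 74 bp, at rank 63799 and a place of 90.1%, and AML1-ETO 48 h had one of 599 bp at 72 bp, at rank 44473 and 42.0%. Neither ETO2-GLIS2 list had a peak with a summit within 1 kb of a RELB start. The stronger peaks of the window belonged to neighbours by position: those at the start of CLASRP had places of 12.6%, 5.33%, 58.0% and 23.8%, and those near a start of CLPTM1 34.4%, 10.5% and 37.5%, with none in ETO2-GLIS2 48 h. A further region near a CLPTM1 start, at -13946 and -13957 bp, was in the AML1-ETO lists at 21.9% and 48.9%. Of 17 RELB window peaks in AML1-ETO 48 h, 2 were shared with ETO2-GLIS2, where 17.8% of all peaks of that list were shared.

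**Figure D2:**
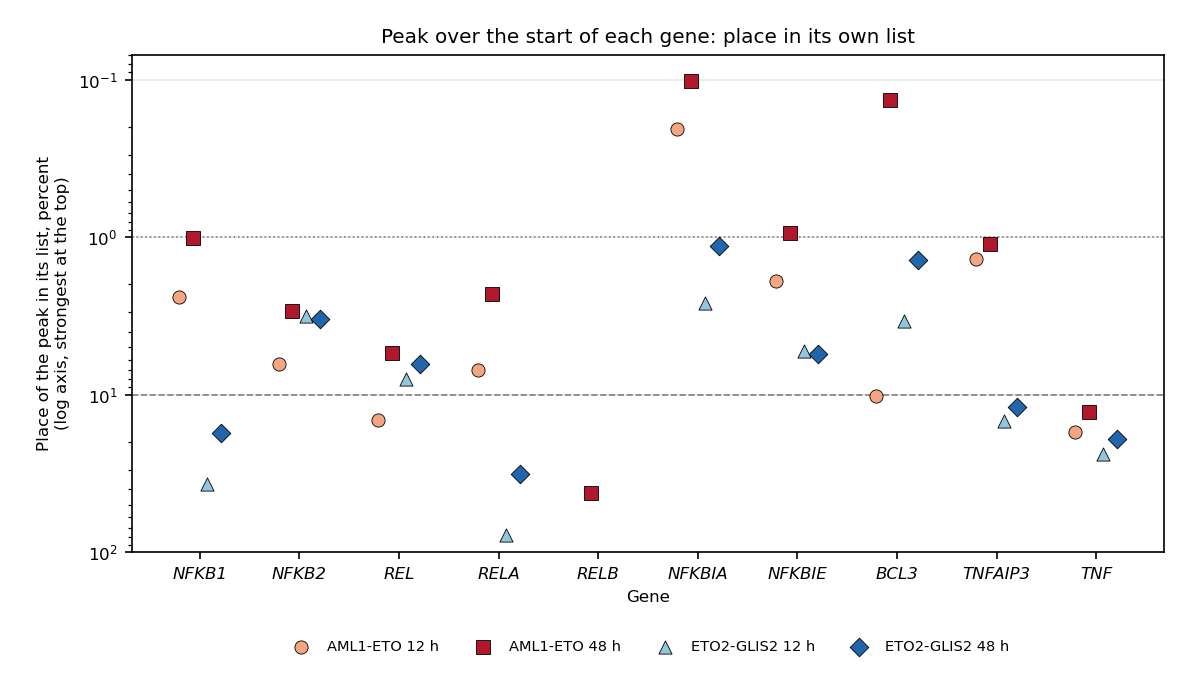
Place in its own list of the peak that covers the canonical start or the 5′ end of each member, in percent on a log axis with the strongest at the top, for the 4 lists. Lines mark 10% and 1%. NFKBIA is highest, at 0.206% and 0.102% in the AML1-ETO lists and at 2.64% and 1.15% in those of ETO2-GLIS2; RELB has a point in AML1-ETO 48 h alone, and the BCL3 point of that list is a merged peak whose summit is in intron 2.

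Among the inhibitor genes, NFKBIA (chr14:35870285-35873955, minus strand) encodes IκBα, the fast feedback inhibitor that is resynthesized soon after NF-κB enters the nucleus. The peak over its start had ranks 146 and 108 in AML1-ETO 12 h and 48 h and ranks 748 and 345 in ETO2-GLIS2 12 h and 48 h. The places were 0.206%, 0.102%, 2.64% and 1.15%. The fold enrichment of the summit over the local background was 69.3, 82.8, 32.4 and 81.0, which is comparable only within a list. In each list it was the highest start peak of the 10 genes. The summits of 3 lists coincided in intron 1, at 891, 895 and 895 bp, and that of AML1-ETO 48 h lay in exon 1 at 68 bp. The peaks were broad, at 3745, 6103, 2385 and 2709 bp, beside a gene of 3.671 kb. The upstream κB match was 144 bp from the AML1-ETO 48 h summit and 967, 971 and 971 bp from the others. The NFKBIA window held no start of another protein-coding gene.

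NFKBIE (chr6:44225903-44233525, minus strand) encodes IκBε, an inhibitor that is induced later. Its start peaks had ranks 1337, 992, 1497 and 1667 and places of 1.89%, 0.938%, 5.29% and 5.54%. All summits were in exon 1, at 13 bp in both AML1-ETO lists and at 481 and 496 bp in the ETO2-GLIS2 lists, and the position changed little with time within each protein. Downstream, the same window held the start of SLC35B2, with places of 7.40%, 3.41%, 5.74% and 4.52%, and that of HSP90AB1, where the AML1-ETO 48 h peak was 10536 bp wide, at rank 3176. These peaks were counted for NFKBIE by the distance rule and lie at other genes.

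BCL3 (chr19:45250962-45263301, plus strand) encodes an IκB-like protein that acts in the nucleus with p50 and p52 dimers. It held the strongest peak within any member gene in both ETO2-GLIS2 lists, and in the AML1-ETO lists it stood next after NFKBIA. In intron 2 the summits were at 4774, 4775, 4783 and 4785 bp, within 11 bp of each other. The ranks were 203, 143, 232 and 143 and the places 0.287%, 0.135%, 0.819% and 0.475%. The fold enrichment was 63.8, 78.5, 64.5 and 106. In the sequence shown above, the Runt match lay 7, 8, 16 and 18 bp from these summits, the nearer E-box CAGCTG within 9 bp of all of them and the κB match 30 to 41 bp upstream. At the start of BCL3 the peak had rank 7235 in AML1-ETO 12 h, 961 in ETO2-GLIS2 12 h and 419 in ETO2-GLIS2 48 h, places 10.2%, 3.39% and 1.39%. In AML1-ETO 48 h start and intron were covered by a single peak of 9269 bp, so no separate start value exists. A further region upstream, at -6717, -6762, -6572 and -6572 bp, was in all lists at 8.58%, 5.89%, 11.3% and 10.3%. BCL3 also had the most peaks in AML1-ETO 12 h, 20, and 22 in AML1-ETO 48 h, against 6 and 7 for ETO2-GLIS2.

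TNFAIP3 (chr6:138188351-138204451, plus strand) encodes A20, a ubiquitin editor that shuts off signaling to the IκB kinase. AML1-ETO covered its start at ranks 973 and 1179, places 1.37% and 1.11%, with summits in intron 1 at 311 and 332 bp. For ETO2-GLIS2 the ranks were 4146 and 3609 and the places 14.6% and 12.0%, with summits in exon 1 at 236 and 104 bp. The AML1-ETO peaks stood higher at both times by rank and by place. Towards the 3′ end of the gene, in exon 9, AML1-ETO had a peak at 15387 and 15453 bp, at places of 12.9% and 13.8%, and ETO2-GLIS2 had one at 12 h, at 48.0%. At 48 h the ETO2-GLIS2 list held 1 peak in the whole TNFAIP3 window, the one over the start, against 10 in the longer AML1-ETO list. Outside the rule, 20 to 25 kb from the gene, ETO2-GLIS2 48 h had 1 more peak, at a place of 12.3%. AML1-ETO 48 h had 3 there, the highest at 4.29%.

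TNF (chr6:31543342-31546113, plus strand) encodes the inflammatory cytokine that both activates the pathway and is made by it. Its own start carried moderate peaks, with ranks 12286, 13612, 6803 and 5776 and places of 17.3%, 12.9%, 24.0% and 19.2%. The AML1-ETO 48 h peak was 6060 bp wide and covered the whole gene of 2.772 kb. The strong peaks lay on both sides, in the surrounding cluster of immune genes. Upstream, at -16561, -16624, -16311 and -16311 bp, all lists had a peak of the strongest 1%, at 0.260%, 0.793%, 0.304% and 0.947%, and the nearest protein-coding start was that of ATP6V1G2. This is the TNF distal sequence shown above, whose Runt match lay 93 bp from both ETO2-GLIS2 summits and 157 and 220 bp from those of AML1-ETO. Downstream, at the start of LST1, the ranks were 103, 600, 111 and 49, and this was the strongest peak of all member windows in AML1-ETO 12 h and in ETO2-GLIS2 48 h. In ETO2-GLIS2 12 h the upstream peak, at rank 86, was the strongest, and in AML1-ETO 48 h that of NFKBIA. Within LTB, the gene of lymphotoxin beta, the 4 summits fell within 23 bp, at places of 28.6%, 17.1%, 14.3% and 18.6%. A κB match lay 18, 22, 1 and 1 bp from these summits in the order of the lists. Another lay 13, 98, 15 and 6 bp from those at the start of LST1. The sequences around these matches are not shown. At the start peak of TNF itself no list reached the strongest 10%.

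**Figure D3:**
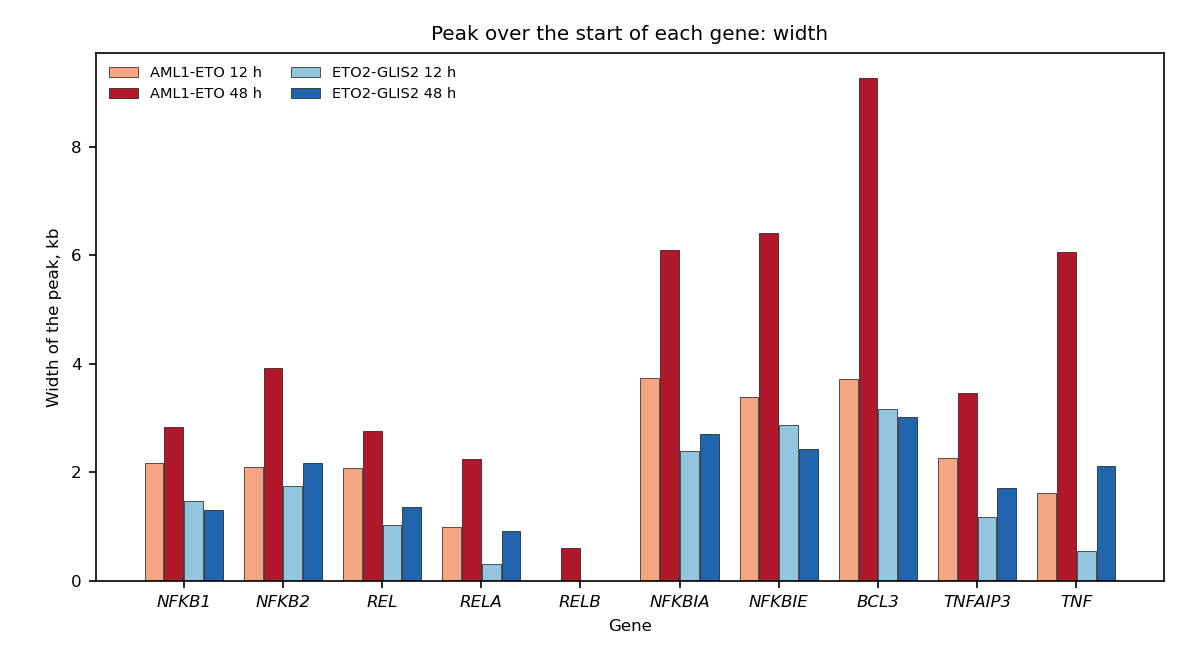
Width in kb of the peak that covers the canonical start or the 5′ end of each member in the 4 lists, with no bar where there is no such peak. The AML1-ETO 48 h bars are the widest at every member, up to 9269 bp at BCL3, where the peak also covers intron 2.

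Over all start peaks, AML1-ETO was wider and often stood higher in its list. The peak over the start was wider for AML1-ETO at 9 of 9 members with both at 12 h and 9 of 9 at 48 h, with median width ratios of 1.57 and 2.25. Among all protein-coding genes with both peaks, 80.1% of 4664 at 12 h and 94.9% of 6279 at 48 h had the wider AML1-ETO peak, with ratios of 1.60 and 2.55. By place AML1-ETO stood higher at 6 of 9 members at 12 h and 9 of 9 at 48 h, where all genes gave 75.8% and 86%. By rank number the counts were 5 of 9 and 6 of 9, where all genes gave 47% and 50.3%. The 48 h counts include the merged BCL3 peak, whose summit is in intron 2, and without BCL3 they were 8 of 8 by place and 5 of 8 by rank. The rank number, unlike the place, does not change when weaker peaks are added at the end of a list. More strong peaks in a list do raise the rank number, and neither measure was scaled for depth. At the TNF start at 48 h, the AML1-ETO peak had a −log10 q of 27.6 at rank 13612. The ETO2-GLIS2 peak there had 26.0 at rank 5776. NFKB1, RELA, NFKBIA, NFKBIE and TNFAIP3 were ahead for AML1-ETO by both measures at both times, and NFKB2, REL and TNF were ahead for ETO2-GLIS2 by rank at both times.

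The peak over the start stood higher at 48 h than at 12 h in place for 9 of the 9 members with both AML1-ETO peaks, the merged BCL3 peak included, and for 7 of 9 with both ETO2-GLIS2 peaks. The same share over all protein-coding genes was not computed, so these counts cannot be read as particular to the members. The 12 h place divided by the 48 h place was 2.38 and 2.12 at NFKB1 for AML1-ETO and ETO2-GLIS2, 3.06 and 2.44 at RELA, 2.02 and 2.30 at NFKBIA, and 1.23 and 1.22 at TNFAIP3. The AML1-ETO list grew between these times, so a peak of unchanged rank also moves up in place. In rank, AML1-ETO fell back at TNFAIP3 and TNF and moved up at the others.

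The windows were dense in peaks. The median number per member was 8.5, 11, 4 and 3.5 in AML1-ETO 12 h, AML1-ETO 48 h, ETO2-GLIS2 12 h and ETO2-GLIS2 48 h, against 3, 5, 1 and 1 over all protein-coding genes. Peaks covered a median of 11.9%, 25.1%, 6.14% and 10.4% of a member window, against 2.24%, 4.44%, 0.677% and 0.756% of the windows of all genes. For 44, 59, 25 and 21 of the peaks, the nearest protein-coding start was that of another gene. At the edge of the windows the numbers gave no natural border: 14, 16, 6 and 6 peaks had summits 15 to 20 kb from a member gene, and 9, 21, 6 and 8 lay 20 to 25 kb away, outside the rule.

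The joined regions showed what was stable over proteins and times. Of 145 regions in the member windows, 21 were in all 4 lists, 10 in 3, 15 in 2 and 99 in 1. The regions in all lists made up 14.5%, beside 9.87% of the 129914 joined regions of the genome. Regions in 3 lists made up 6.90%, beside 5.30%, and those in 2 lists 10.3%, beside 16.6%. Regions in 1 list made up 68.3%, near the 68.2% of the genome. AML1-ETO 48 h alone held 76 of the 99, AML1-ETO 12 h alone 19, and each ETO2-GLIS2 list 2. Regions of AML1-ETO only numbered 104 and those of ETO2-GLIS2 only 4, of which 2 were in the NFKBIE window and 1 each in the NFKB2 and NFKBIA windows. The AML1-ETO lists are the longer ones, and this split by protein was not counted over the genome. At the upstream edge of the TNFAIP3 window, 1 region counted for AML1-ETO 48 h alone overlaps peaks of all 4 lists, those of the other lists with summits outside the window. Each member had at least 1 region in all 4 lists, with 4 in the TNF window. Only for RELB did none of them lie at the member's own start.

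Sharing was read with an overlap of at least 1 bp. Of the member peaks, 36 of 99 in AML1-ETO 12 h (36.4%, exact 95% Clopper-Pearson interval 26.9 to 46.6%) and 29 of 128 in AML1-ETO 48 h (22.7%, 15.7 to 30.9%) overlapped an ETO2-GLIS2 peak of the same time, against 26.2% and 17.8% of the whole lists. Of the ETO2-GLIS2 peaks, 41 of 49 at 12 h (83.7%, 70.3 to 92.7%) and 46 of 48 at 48 h (95.8%, 85.7 to 99.5%) met a peak of AML1-ETO, against 74.5% and 83.4%. At least 1 shared peak was present in the windows of 10 members in each list, beside 59.5%, 62.8%, 59.5% and 62.9% of all genes. The intervals cover counting error only and treat the peaks as independent. Member peaks lie in neighbouring clusters, so the intervals can be too narrow and are no test against the whole lists. Of the member peaks in the strongest 10%, 14 of 15, 18 of 18, 11 of 11 and 12 of 12 were shared in the order of the lists, beside 85.8%, 84.0%, 98.0% and 99.8% of all peaks of that class. In the weaker part of the AML1-ETO lists, below the median rank, 6 of 50 and 1 of 52 were shared, beside 6.41% and 2.75%. When summits had to lie within 200 bp, the shares were 20.2%, 11.7%, 40.8% and 31.3%. The shares of the whole lists under this rule were not computed.

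Between times, 80 of 99 AML1-ETO 12 h peaks (80.8%) and 47 of 128 AML1-ETO 48 h peaks (36.7%) were found at the other time, beside 73.9% and 36.8% of the lists. For ETO2-GLIS2 the numbers were 32 of 49 (65.3%) and 27 of 48 (56.3%), beside 60.6% and 54.6%. The 48 h shares were close to those of the whole lists. All member peaks of the strongest 10%, which were 15, 18, 11 and 12, recurred at the other time, as did 99.97%, 99.7%, 99.6% and 100% of all peaks of that class.

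The wider pathway gave a comparison of function. A list of 78 further genes of NF-κB signaling, all in the annotation, had a start summit for 65, 66, 53 and 56 genes in the order of the lists, and in the strongest 10% for 23, 34, 16 and 16. In percent these were 83.3%, 84.6%, 67.9% and 71.8% with a start summit, beside 54.1%, 59.8%, 42.8% and 45.8% of all genes, and 29.5%, 43.6%, 20.5% and 20.5% in the strongest 10%, beside 17.8%, 29.6%, 6.96% and 8.72%. Their median place was 16.8%, 9.08%, 27.8% and 23.1%, close to the 16.9%, 10.1%, 32.1% and 27.6% of all genes with a start summit. The medians of the 10 members given above, from 2.62% to 7.93%, were higher places than these. By role, start summits at 48 h were found for 9 of 13 ligand and receptor genes in AML1-ETO and 6 of 13 in ETO2-GLIS2, for 26 and 24 of 28 adaptor and kinase genes, for 15 and 13 of 15 inhibitor and ubiquitin-editor genes, and for 16 and 13 of 22 target genes, where the shares of all genes were 59.8% and 45.8%. Ligands and receptors had 1 and 0 start summits in the strongest 10%, with median places of 27.5% and 31.9%.

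The highest start peak of each role in AML1-ETO 48 h was that of LTBR, the lymphotoxin beta receptor (4.34%), IKBKE, an IκB-kinase relative (0.415%), TAX1BP1, an adaptor of A20 (0.367%), and CFLAR, an inhibitor of death-receptor caspases (0.729%). In ETO2-GLIS2 48 h it was that of LTBR (23.4%), CARD9, an adaptor of lectin receptors (2.32%), ZC3H12A, a ribonuclease that degrades cytokine mRNAs (1.78%), and TNFAIP2, a TNF-induced gene (0.718%). At 48 h LTBR led the receptors in both lists, whereas at 12 h it was LTBR for AML1-ETO (9.36%) and TNFRSF1A, a receptor of TNF, for ETO2-GLIS2 (30.5%). Among the targets, CXCL8, CXCL3, CCL3, CCL4, CCL20, PTGS2, IL6, TNFAIP6 and BCL2A1 had no start summit in ETO2-GLIS2 48 h. Of these, CXCL3, BCL2A1, PTGS2 and TNFAIP6 had none in AML1-ETO 48 h either. Conversely IER3 and JUNB had none in AML1-ETO 48 h and had one in ETO2-GLIS2 48 h, at 27.5% and 3.36%. A broad peak can cover a start with its summit farther than 1 kb away. Whether a peak covers the starts of these single genes is not given here.

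By the place of the best start summit in all 4 lists, the genes most like the median of the 9 members with one were C1orf53, NEMP1 and LSM14B among 7195 genes compared. Their distances from that median, as the root of the squared differences in log10 place over 4 lists, were 0.0552, 0.0853 and 0.114. C1orf53, for example, had places of 6.90%, 2.11%, 8.40% and 6.68%, beside members' medians of 6.41%, 2.28%, 7.93% and 6.44%.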

How the data were processed

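According to the submitters' processing notes, the authors mapped reads to hg19 (Bowtie2 2.2.9, SAMtools 1.7) and called peaks with MACS2 2.1.1.20160309, each ChIP library against an input library; its settings and any removal of duplicates are not given in the sources used here. The deposited peak lists give position, summit, a fold enrichment (a linear ratio over the local background), the −log10 p-value and −log10 q-value of each peak, and a score that is 10 times the −log10 q cut to a whole number. The smallest −log10 q was 1.31, 1.30, 1.31 and 1.31. The treatment label of the 12 h samples names 48 h, and the titles were followed.

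Lines on sequences other than the autosomes, X and Y were dropped, which removed 131, 126, 68 and 60 lines in the order used above. Gene models came from GENCODE v44lift37 on GRCh37. Tied peaks took the smallest rank. Intervals are exact Clopper-Pearson intervals (scipy 1.17.1) with a level of 95%, and no p-value was computed. The sequence upstream of 1 member is not reported here. Motif and overlap counting were tested on simulated data. The members, the pathway list and the motifs were chosen with earlier results of these data known. The text names the members, the highest pathway gene of each role at 48 h, other genes whose start lies at a member's peak, and the 3 genes most like the members. ATP6V1G2, TNFRSF1A and the targets without a start summit in 1 of the 48 h lists or in both were named after their values were seen.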

Additional observations from a re-analysis of the deposited data

Results flagged for a closer look

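At NFKB2 and NFKBIE the peak over the start moved in opposite directions between the times in the lists of the 2 proteins. The 12 h place divided by the 48 h place was 2.17 for AML1-ETO and 0.952 for ETO2-GLIS2 at NFKB2, and 2.01 and 0.954 at NFKBIE. With 1 library for each condition the difference was not tested, and the ETO2-GLIS2 moves were small.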

How the results depend on the processing

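Values are in the order AML1-ETO 12 h, AML1-ETO 48 h, ETO2-GLIS2 12 h, ETO2-GLIS2 48 h, and for changed results the cause was not tested beyond the alternative's own construction. The 4 counts of members with at least 1 peak and of members with a start summit stayed within 1.5 times under all alternatives run for them. For counts out of 10 members that range is wide. In gene bodies, 7 and 8 members had a peak for ETO2-GLIS2 12 h and 48 h, where the main count was 10. Of 200 alternative values, 131 stayed within that range, or within the interval for shares, and 69 moved. Peaks in the member windows numbered 42, 57, 29 and 31 at a −log10 q of at least 5, 21, 35, 22 and 21 at 10 or more, 53, 62, 31 and 31 in windows of 5 kb, 26, 26, 16 and 19 in gene bodies, 55, 69, 24 and 27 where the nearest start was the member's, 37 and 39 for AML1-ETO among the strongest 28325 peaks of each list, and 53 and 60 for AML1-ETO and 31 for ETO2-GLIS2 48 h with peaks within 1 kb joined. Members with a peak in the strongest 10% numbered 6, 7, 4 and 4 in gene bodies, of which the AML1-ETO counts were within the range. The percent shared with the other protein was 54.8 and 43.9 for AML1-ETO and 100 for ETO2-GLIS2 48 h at 5 or more, 71.4 and 60 for AML1-ETO and 100 for ETO2-GLIS2 48 h at 10 or more, 73.0, 64.1 and 67.3 in the first 3 lists with equal numbers of peaks, 49.1, 32.3 and 93.5 with 5 kb, 53.8, 42.3 and 93.8 in gene bodies, 95.8 for ETO2-GLIS2 12 h by nearest start, 21.2 and 7.81 for AML1-ETO with an overlap of at least 50% of the peak, and 20.2, 11.7, 40.8 and 31.3 with summits within 200 bp. The percent found at the other time was 90.5, 49.1, 79.3 and 71.0 at 5 or more, 95.2, 54.3, 86.4 and 85.7 at 10 or more, 91.9 and 71.8 for AML1-ETO with equal numbers, 92.3, 53.8 and 81.3 in gene bodies, 17.2 for AML1-ETO 48 h and 37.5 for ETO2-GLIS2 48 h with an overlap of at least 50%, and 33.3, 25.8 and 46.9 with summits within 200 bp. For both of these percents, the shares of the whole lists under the alternatives were not computed. In the whole lists sharing also rose with strength. In AML1-ETO 12 h it was 6.41% in the weaker 50% of all peaks and 85.8% in the strongest 10%. Pathway genes with a start summit numbered 34 for ETO2-GLIS2 12 h at 10 or more and 34 where the peak had to cover the canonical start. Covering an annotated or the canonical start was added after seeing the data. No paired analysis was possible because each condition had 1 library.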
